A study of Homo sapiens with 5 samples.

Results

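The cells described here are the 377 cells of the HA FOSL1 sample that still held a high level of S100A9 RNA, among 1826 cells of that sample that passed the cell filters and 14642 such cells in all 5 samples. They were picked on their own S100A9 count: at least 10 S100A9 UMIs (unique transcript tags) per 10000 UMIs of the cell. They are called keepers below, and are set against the 358 HA FOSL1 cells with fewer than 1 S100A9 UMI per 10000, called low cells. The other 1091 cells of the sample lay between the limits. The question was whether cells that keep S100A9 also lack the other RNA differences that go with raised FOSL1. Because S100A9 chose the classes, its own level is a description. S100A9 was left out of the class totals behind the CPM of other genes and the fits. It stayed in the UMI totals of single cells, thinned cells included.

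All cells were MDA-MB-468, an established human line of triple-negative breast cancer. The groups were an HA control, the HA FOSL1 sample, a VPR control and a pair of VPR FOSL1 samples, made with gRNA2 and with gRNA3. HA and VPR are given as written in the labels, which do not spell them out, and the hashtag read as HA FOSL1 carries the prefix GOF in the deposited table. The protocol speaks of 6 stained samples in the pool, of which the labels name 5. Each group was 1 sample stained with its own hashtag antibody, and all 5 were run as 1 droplet library in which transcripts were counted by a tag near their 3' end. A general mention of 5-fluorouracil in the labels is tied to none of these samples, and the labels do not say whether a sample was a clone or a mixed population. RNA from a FOSL1 construct is counted only where it ends like the native gene, so the FOSL1 level of the HA FOSL1 cells may miss construct RNA. With 1 sample a group, differences between classes carry 95% counting intervals and no p-value, and the intervals cover counting error only.

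S100A9 pairs with S100A8 to form calprotectin, a calcium- and zinc-binding protein that epithelial cells make in inflamed or stressed states and that myeloid cells store in bulk. FOSL1 encodes FRA-1, which dimerises with JUN proteins to form AP-1, a transcription factor. Its motif was searched for here as TGANTCA, where N stands for any base. In breast cancer cells FRA-1 is known for raising genes of migration, wound response and the basal cell state.

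Stretches of 250 bases before the start site are shown for S100A9, the gene that chose the cells, and for FST, a gene far lower in keepers than in low cells, and EMP1, a gene raised with both FOSL1 guides. FST and EMP1 were picked because they hold a match to TGANTCA, which most genes of their groups do not. They come from RefSeq on GRCh38.p14, plus strand, and capitals mark TGANTCA, which reads the same on both strands. The S100A9 stretch is chr1:153357604-153357853, the FST stretch chr5:53480379-53480628 and the EMP1 stretch chr12:13196476-13196725.
S100A9: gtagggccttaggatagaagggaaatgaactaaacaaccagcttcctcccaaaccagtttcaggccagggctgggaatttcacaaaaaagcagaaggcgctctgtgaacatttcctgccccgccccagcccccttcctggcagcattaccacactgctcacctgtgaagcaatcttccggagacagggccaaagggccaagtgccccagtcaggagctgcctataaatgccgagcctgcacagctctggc
FST: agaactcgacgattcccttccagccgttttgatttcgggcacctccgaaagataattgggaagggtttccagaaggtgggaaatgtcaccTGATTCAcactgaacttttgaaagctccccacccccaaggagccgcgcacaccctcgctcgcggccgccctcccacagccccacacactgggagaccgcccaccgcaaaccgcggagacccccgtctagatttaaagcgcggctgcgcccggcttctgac
EMP1: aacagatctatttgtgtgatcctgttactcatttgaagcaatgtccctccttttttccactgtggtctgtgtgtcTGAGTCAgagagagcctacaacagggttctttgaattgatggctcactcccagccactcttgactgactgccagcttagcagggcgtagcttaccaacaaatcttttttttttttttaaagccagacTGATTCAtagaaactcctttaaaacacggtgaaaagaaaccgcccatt
S100A9 held no match, FST held 1, starting 160 bases before the start site, and EMP1 held 2, the first starting 175 bases before it. Counting windows of 250 bases before to 50 after the start, 2707 of 35116 promoters (7.71%) held the motif. Of the 78 genes raised with both guides, 51 had a promoter in the table and 5 of those held it (EMP1, FUT8, LYST, S100A2 and S100A3), which is 9.80%. Of the 45 genes lowered with both guides, 28 had one and 1 held it (SLC6A14, 3.57%). Among the 12 genes lowest in keepers against low cells 8 had a promoter and FST alone held the motif, and among the 12 highest 7 had one and none held it. A match is a run of letters and not a site. S100A9 itself lies at chr1:153357854-153361023, S100A8 at chr1:153390032-153422583 and S100A7 at chr1:153457744-153460651, so that these 3 genes are neighbours, whereas FOSL1 lies at chr11:65892049-65900545.

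Keepers were a minority of the HA FOSL1 sample but not a rare one. They made up 20.6% of its cells (exact 95% interval 18.8% to 22.6%), against 48.9% of HA control cells above the same limit. The share was 61.5% in the VPR control, 15.5% under gRNA2 and 17.7% under gRNA3. Low cells were 19.6% of HA FOSL1, 2.54% of the HA control and 1.66% of the VPR control, against 13.6% under gRNA2 and 11.6% under gRNA3. Both controls thus held few low cells, 86 and 43, and any value for them rests on those. The median keeper had 18.96 S100A9 UMIs per 10000 and the highest 185.9, and the median low cell had 0.499. The limits cut a continuum: 91 HA FOSL1 cells lay between 8 and 10 and 59 between 10 and 12, and the cells next to the upper limit stood at 10.004 inside and 9.99881 outside. Around the lower limit 65 cells lay between 0.8 and 1 and 68 between 1 and 1.2, the nearest at 0.999034 inside and 1 outside.

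**Figure D1:**
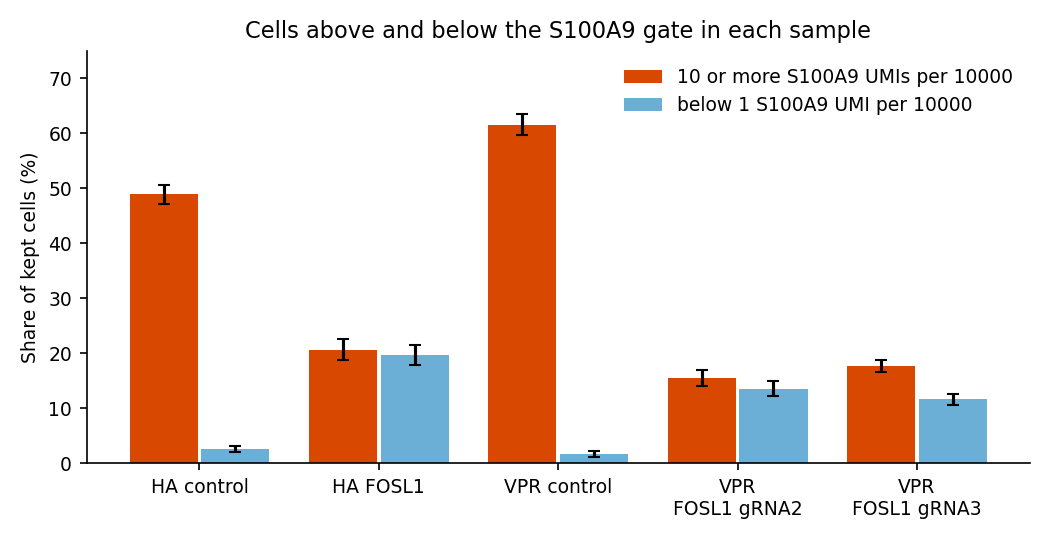
Share of kept cells (%) at or above 10 and below 1 S100A9 UMIs per 10000 in each of the 5 samples, bars with exact 95% binomial intervals. The HA FOSL1 sample had 20.6% above and 19.6% below, whereas the HA control had 48.9% above and 2.54% below.

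In the keepers S100A9 stood at 2519 CPM (UMIs per 1000000 UMIs of the class) and in the S100A9-high HA control cells at 2629 CPM, so the gate matched the pair closely. Low cells stood at 48.0 CPM and the HA control low cells at 49.4 CPM. Free RNA of the library, taken from droplets without a cell, held 1201 CPM of S100A9, so part of the S100A9 in low cells can be free RNA, and its part was not tested. Keepers had fewer UMIs a cell than low cells (medians 18858 and 21637.5) and a higher mitochondrial share (10.8% and 9.38%). UMIs of the other 4 hashtags made up a median 9.08% of hashtag UMIs in keepers and 6.88% in low cells. The HA control hashtag had a median of 8 UMIs in both classes, against 435 in the S100A9-high HA control cells. The tags of the VPR control, gRNA2 and gRNA3 had medians of 7, 16 and 24 UMIs in keepers and 6, 15 and 23 in low cells, at 617 and 768.5 hashtag UMIs a cell in all. What RNA of other samples adds to keepers was not tested. Summed UMIs were 7652126 for keepers, 8387184 for low cells, 27266933 for S100A9-high and 1415813 for S100A9-low HA control cells.

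FOSL1 RNA itself was far lower in keepers than in low cells, and still above control. Keepers held 14.9 CPM of FOSL1 and low cells 112 CPM. The HA control held 5.07 CPM in its S100A9-high and 27.5 CPM in its S100A9-low cells, the VPR control 6.92 and 22.4 CPM, gRNA2 65.4 and 138 CPM, and gRNA3 62.3 and 117 CPM. FOSL1 was thus lower on the S100A9-high side in each of the 5 samples, and keepers held less of it than S100A9-high cells of either guide sample. The log2 ratio of keepers to low cells was -2.82 (-3.10 to -2.55), and that of keepers to S100A9-high HA control cells 1.39 (1.06 to 1.72). Free RNA held 63.5 CPM of FOSL1, and all 5 samples shared 1 library and so 1 pool of free RNA. Its part in the 14.9 CPM of keepers was not tested. With each cell thinned to 5000 UMIs, 19 of 376 keepers (5.05%) had a FOSL1 UMI, against 115 of 353 low cells (32.6%) and 2.55% of S100A9-high HA control cells. Without thinning the shares were 17.0%, 72.1% and 7.08%, at median depths of 18858, 21637.5 and 15093.5 UMIs.

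The FOSL1 response was read on genes that no HA cell had chosen: 78 genes at least 1.5-fold higher and 45 at least 1.5-fold lower under both gRNA2 and gRNA3 than in the VPR control, FOSL1 and S100A9 left out. The guide samples also held fewer S100A9-high cells than their control, so these lists can hold genes that go with S100A9. The same choice made on S100A9-high cells of the VPR samples alone gave 46 raised genes, 40 of them among the 78, and 11 lowered genes, 9 of them among the 45. Keepers exceeded S100A9-high HA control cells by 1.5-fold or more for 38 of the 46 and were lower by as much for 2 (median 1.31).

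Of the 78 raised genes, 61 were at least 1.5-fold higher in keepers than in S100A9-high HA control cells and 1 was lower, with a median log2 ratio of 1.11 against -0.01 over all 5672 genes at 20 CPM or more. Counting only members at 20 CPM or more, 30 of 37 were higher, beside 3.40% of all genes higher and 1.27% lower. Against low cells the order turned: 60 of the 78 were at least 1.5-fold lower in keepers and 1 was higher, with a median of -1.15 (all genes -0.05). At 20 CPM or more, 55 of 64 were lower, beside 6.58% of all 5710 genes lower and 3.84% higher. At 2-fold, 1.82% of all genes were lower in keepers and 1.42% higher. Low cells against S100A9-low HA control cells had 62 of 78 higher and 2 lower, median 1.34, beside 6.61% of all genes higher and 7.05% lower. Within the HA control, S100A9-high cells had 57 of the 78 lower than S100A9-low cells and 2 higher, median -0.95 (all genes -0.06). At 20 CPM or more, 26 of 36 were lower, beside 5.62% of all genes lower and 2.29% higher. The same medians were -0.71 in the VPR control, -0.77 under gRNA2 and -0.68 under gRNA3. Keepers therefore held the raised genes above control and below low cells, and S100A9-high cells had the lower level by median in every sample. With cells of over 5% other hashtag UMIs left out, which kept 59 keepers, the median against control was 1.28 and that against low cells -0.84.

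OLFML3, a secreted glycoprotein of the extracellular matrix, showed the pattern in full. It stood at 26.9 CPM in keepers and 216 CPM in low cells, against 2.32 and 4.94 CPM in S100A9-high and S100A9-low HA control cells. The VPR control held 5.73 and 7.46 CPM, gRNA2 14.9 and 21.1 CPM, and gRNA3 35.2 and 55.8 CPM. The log2 ratio was 3.07 (2.75 to 3.39) to control, and -2.96 (-3.17 to -2.76) to low cells, so keepers lay apart from both. With the 59 keepers left by the 5% limit on other hashtags, the ratio of OLFML3 to low cells was -1.43.

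KLK6, a kallikrein protease, stood at 71.5 CPM in keepers, 283 CPM in low cells, and 17.4 and 16.2 CPM in the HA control classes. Its log2 ratio was 1.98 (1.81 to 2.16) to control and -1.97 (-2.10 to -1.83) to low cells. In keepers KLK6 was at the level of the guide samples, which held 75.02 and 96.3 CPM with gRNA2 and 74.7 and 107 CPM with gRNA3, in S100A9-high and S100A9-low cells. SERPINB7, a serpin protease inhibitor, stood at 25.5 CPM in keepers, 112 CPM in low cells and 2.61 CPM in S100A9-high HA control cells (log2 2.88, 2.56 to 3.19). LAMB3, the beta chain of laminin-332, stood at 18.997, 73.2 and 3.16 CPM in the same order (2.26, 1.93 to 2.59), and AREG, a ligand of EGFR, at 20.04, 73.6 and 5.81 CPM (1.63, 1.33 to 1.92).

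For IL7R, the interleukin-7 receptor chain, and CAV1, the coat protein of caveolae, control cells on either side of the gate differed as well. IL7R stood at 28.6 CPM in keepers and 181 CPM in low cells, and at 3.09 and 55.1 CPM in the HA control. CAV1 stood at 540.3 and 1947 CPM, and at 164 and 663 CPM in the HA control. Measured within a gate class, keepers were at least as far above control as low cells were. The log2 ratios were 2.85 for IL7R in keepers and 1.70 in low cells, and 1.71 for CAV1 in keepers and 1.55 in low cells.

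A few genes were lower in keepers than in low cells by less than 1.5-fold, with both classes above S100A9-high HA control cells. COL5A2, a fibrillar collagen chain, stood at 73.5 CPM in keepers and 80.7 CPM in low cells, against 8.24 CPM in S100A9-high HA control cells. KRT34, a hair keratin, stood at 61.1, 80.0 and 4.27 CPM. S100A9-high control cells are not the class matched to low cells. Over the other 4 samples COL5A2 and KRT34 were lower in S100A9-high than in S100A9-low cells. Their log2 change ran from -1.90 to -1.45 and from -2.59 to -1.52 over the alternative fits. The simple keratins KRT8 and KRT18, which build the filaments of luminal epithelium, followed: KRT8 stood at 1836.5 CPM in keepers, 2045 CPM in low cells and 868 CPM in S100A9-high HA control cells, and KRT18 at 2852.5, 3428 and 1305 CPM. Their log2 ratios to control were 1.08 and 1.13 in keepers and 1.00 and 1.15 in low cells. Of these, COL5A2 was among the genes raised with both guides, and KRT34, KRT8 and KRT18 were not. For all 4 simple keratins listed, the counting interval of keepers to low cells lay below 0.

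KRT14, the keratin of basal epithelial cells, was the opposite case. It stood at 54.9 CPM in keepers and 431 CPM in low cells, against 47.0 and 141 CPM in the HA control. The log2 ratio of keepers to control was only 0.22 (0.06 to 0.38), against 1.61 (1.40 to 1.82) in low cells. To low cells KRT14 stood at -2.95 (-3.10 to -2.81), and at -1.59 with the 59 keepers of the 5% limit on other hashtags. SGK1, a stress-regulated kinase, was likewise at control level, with 7.86 CPM in keepers, 7.98 CPM in S100A9-high HA control cells and 44.1 CPM in low cells.

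**Figure D2:**
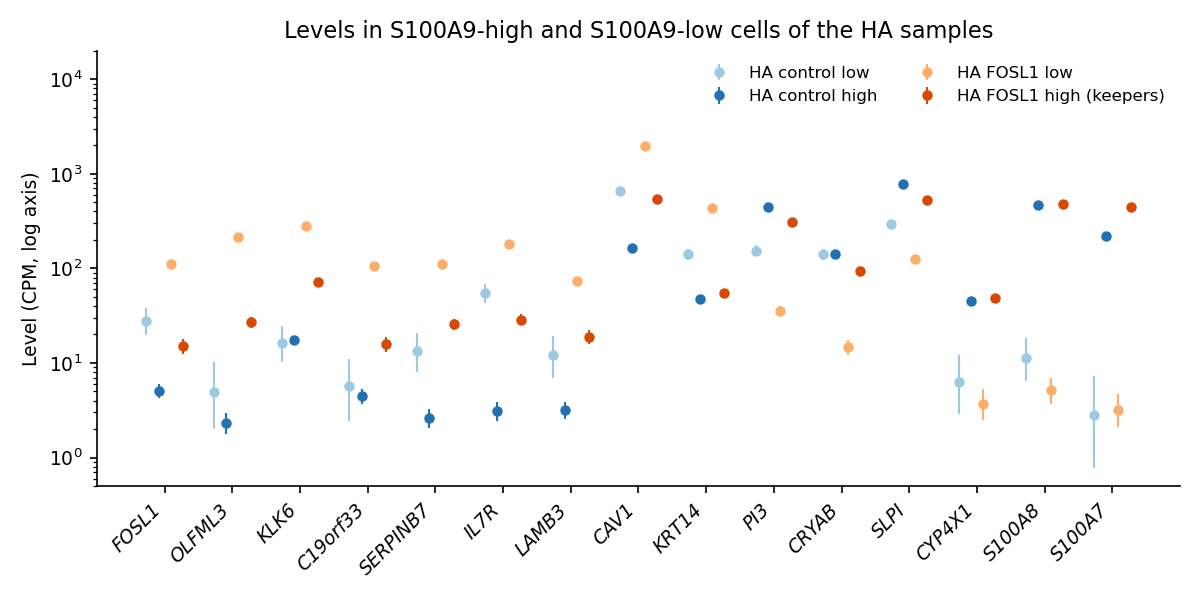
Level (CPM, log axis) of 15 genes in S100A9-low and S100A9-high cells of the HA control and the HA FOSL1 sample, points with exact 95% Poisson intervals. For OLFML3 keepers (26.9 CPM) lie between low cells (216 CPM) and the S100A9-high control cells (2.32 CPM), and for KRT14 they lie near the control cells (54.9 and 47.0 CPM).

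The genes lowered with the guides were nearer to control level in keepers than in low cells, and most were still below it. Of 45, 43 were at least 1.5-fold lower in low cells than in S100A9-low HA control cells and none higher, with a median log2 ratio of -1.57 (all genes -0.03). In keepers against S100A9-high HA control cells 20 were lower and 3 higher, with a median of -0.52, and the counting interval lay below 0 for 32 of the 45. Between the HA FOSL1 classes 42 of 45 were at least 1.5-fold higher in keepers and none lower, with a median of 2.05. At 20 CPM or more those counts were 22 of 22 lower, 15 of 36 lower and 23 of 24 higher. Among all genes the shares were 7.05% lower, 1.27% lower and 3.84% higher in the same order. Within the HA control, S100A9-high cells had 23 of the 45 higher than S100A9-low cells and 3 lower, median 0.65. At 20 CPM or more 18 of 37 were higher and 3 lower, beside 2.29% and 5.62% of all genes.

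CRYAB, a small heat-shock protein, stood at 94.5 CPM in keepers and 14.7 CPM in low cells, and at 142 and 141 CPM in the HA control, where the gate made no difference. Its level was 113 and 77.1 CPM in the VPR control, 74.5 and 36.4 CPM under gRNA2, and 88.8 and 44.0 CPM under gRNA3. Keepers were thus closer to control than to their own low cells. The log2 ratios of CRYAB were -0.58 (-0.70 to -0.47) in keepers to control and -3.18 (-3.50 to -2.86) in low cells to control. IGFBP2 and IGFBP5, which bind insulin-like growth factors, followed: IGFBP2 stood at 52.0 CPM in keepers, 5.72 CPM in low cells and 89.1 CPM in S100A9-high HA control cells, and IGFBP5 at 694, 231 and 994 CPM. Other lowered genes stayed below control in keepers too. AKR1C2, an aldo-keto reductase, stood at 50.3 CPM in keepers and 167 CPM in S100A9-high HA control cells (log2 -1.71, -1.86 to -1.56), and MDK, the growth factor midkine, at 159.8 and 318 CPM (-0.99, -1.07 to -0.90). TAGLN, an actin-binding protein and one of the 3 higher ones, stood at 61.1 and 13.4 CPM.

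**Figure D3:**
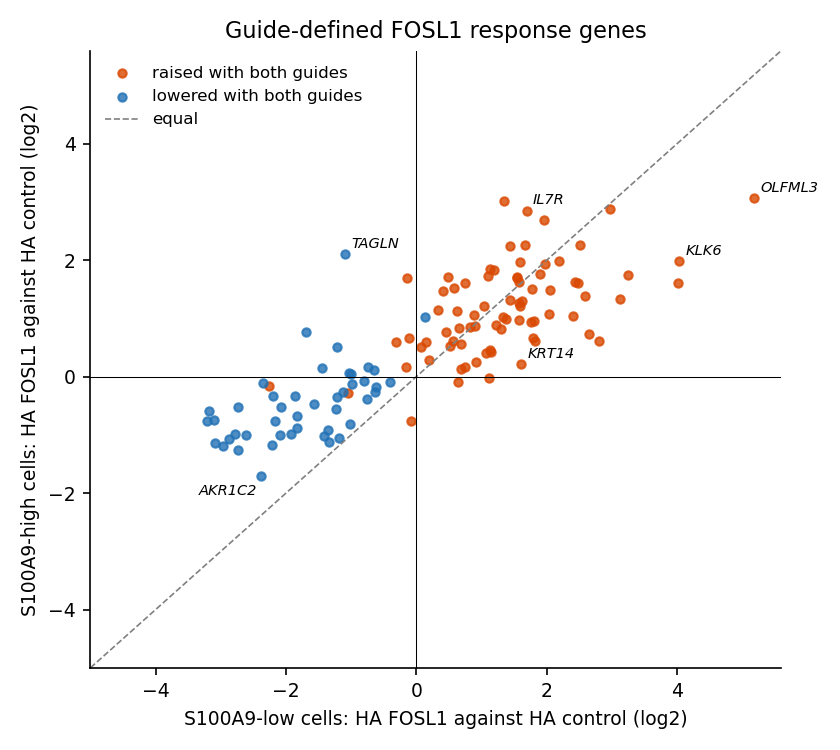
Log2 ratio of HA FOSL1 to HA control in S100A9-low cells (horizontal) and S100A9-high cells (vertical), 1 point per gene raised (78) or lowered (45) with both guides. Most raised genes are above 0 on both axes (medians 1.34 and 1.11), whereas lowered genes lie farther from 0 in S100A9-low cells (medians -1.57 and -0.52).

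By size of the ratio between keepers and low cells, S100A7 and S100A8 led. S100A7 (psoriasin, a skin antimicrobial protein) stood at 451 CPM in keepers, 3.22 CPM in low cells, and 222 and 2.83 CPM in the HA control. S100A8 stood at 484, 5.13, 466 and 11.3 CPM in the same order. S100A8 was thus at control level in keepers (log2 0.05, 0.00 to 0.11), while S100A7 was above it (1.02, 0.96 to 1.08). Next by size of the ratio came CYP4X1, a cytochrome P450, at 48.6 CPM in keepers and 3.70 CPM in low cells. PI3 (elafin, an inhibitor of neutrophil elastase) followed at 307 and 35.8 CPM. IGFBP2, SYT12, CRYAB, RARRES3, CLU, STEAP4, SPDEF and TNFSF10 completed the 12 highest, with log2 ratios between 2.98 and 2.47. SPDEF is an ETS factor of secretory epithelium, TNFSF10 the death ligand TRAIL and CLU the chaperone clusterin.

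FST, follistatin, which binds and blocks activin, was the lowest of the other side, at 3.41 CPM in keepers and 45.5 CPM in low cells (log2 -3.40, -3.87 to -2.93). It was below the 6.25 CPM of S100A9-high HA control cells as well. OLFML3, KRT14, FOSL1, C19orf33 and IL7R followed, then HMGA2, an architectural chromatin protein, at 5.90 and 35.2 CPM. SGK1, the protease PRSS23, KRTAP2-3, the Wnt antagonist DKK1 and FRMD6 closed the 12 lowest, with log2 ratios between -2.35 and -2.13. PRSS23 stood at 60.4 CPM in keepers, 310.2 CPM in low cells and 21.0 CPM in S100A9-high HA control cells, and DKK1 at 66.9, 315 and 21.3 CPM.

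Across the bins of S100A9, FOSL1 and OLFML3 fell in the HA FOSL1 sample. Sums over bins cannot tell a graded change in each cell from a changing mix of cells. From cells with no S100A9 UMI (109 cells) through above 0 to below 1 (249), 1 to below 3 (491), 3 to below 10 (600), 10 to below 30 (290) and 30 or more (87), FOSL1 stood at 117, 109.7, 85.5, 41.9, 15.2 and 13.9 CPM. OLFML3 stood at 223, 213, 184, 97.5, 30.6 and 12.6 CPM in the same order. KLK6 stood at 293, 279, 252, 148, 71.6 and 71.4 CPM, level over the last pair. In the HA control KLK6 ran only from 14.5 to 24.7 CPM and OLFML3 from 2.26 to 5.99 CPM over the same bins, of which the lowest held 31 cells. PI3 went the other way in HA FOSL1 cells, from 31.5 CPM in the first bin to 309 CPM at 10 to below 30 and 298 CPM in the top bin. From the second bin on, FOSL1 also fell and PI3 also rose in the HA control. There FOSL1 stood at 14.5, 32.9, 16.9, 10.5, 5.46 and 4.00 CPM over the bins. PI3 stood at 237, 120, 178, 320, 418 and 507 CPM.

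**Figure D4:**
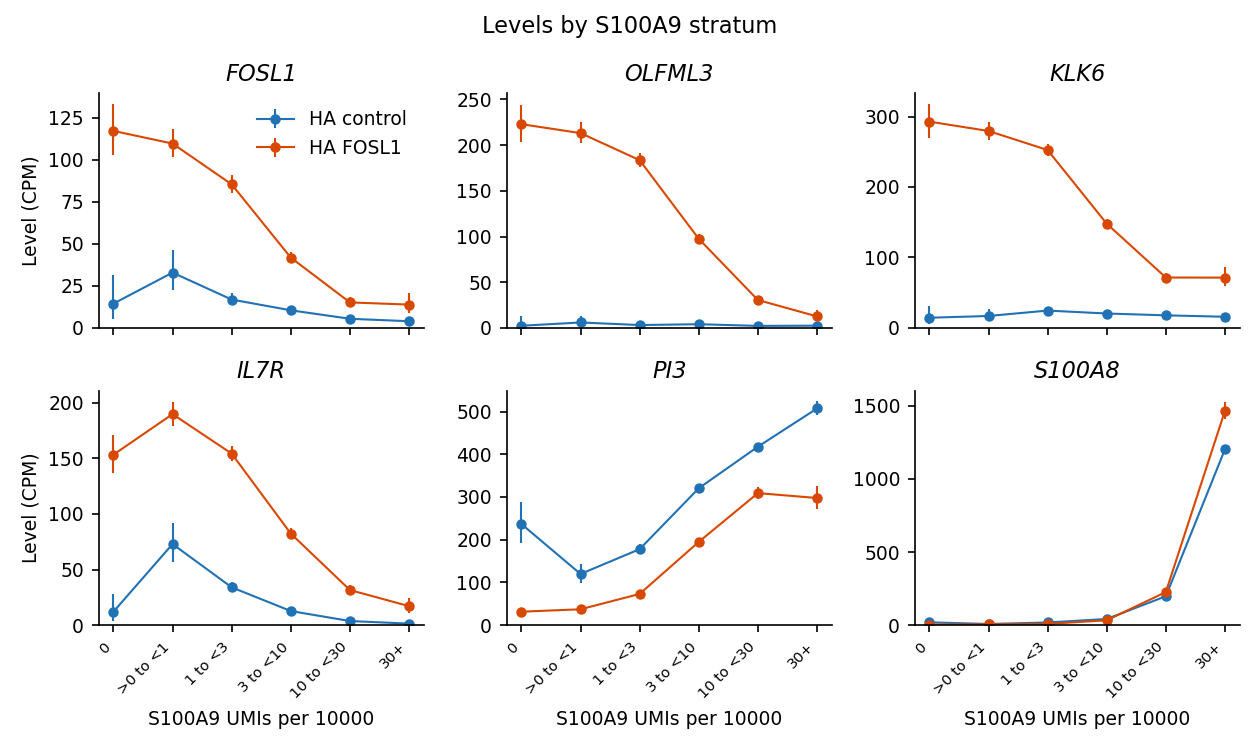
Level (CPM) of 6 genes in 6 bins of S100A9 UMIs per 10000, HA control and HA FOSL1, points with exact 95% Poisson intervals joined by lines. FOSL1 in the HA FOSL1 sample stands at 117 CPM in the first bin and 13.9 CPM in the last.

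Counted cell by cell, the median of keepers lay between those of S100A9-high HA control cells and low cells. With every cell thinned to 5000 UMIs, a keeper held a median of 43 UMIs of the 78 raised genes (quartiles 33 and 57) and a low cell 95 (76 and 111). S100A9-high and S100A9-low HA control cells held 24 and 35. Of 376 keepers, 179 (47.6%, exact 95% interval 42.5% to 52.8%) had more than 44 such UMIs, the 95th percentile of S100A9-high HA control cells, of which 4.44% had more. The share was 94.9% in low cells and 23.5% in S100A9-low HA control cells. The keepers' upper quartile of 57 lay above the control median and below the low cells' lower quartile of 76. For the 45 lowered genes the medians were 43 in keepers, 11 in low cells, and 55 and 36 in the HA control classes. Abundant genes weigh most in such sums: S100A6 alone stood at 4463.5 CPM in keepers, 5625 CPM in low cells and 2538 CPM in S100A9-high HA control cells.

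**Figure D5:**
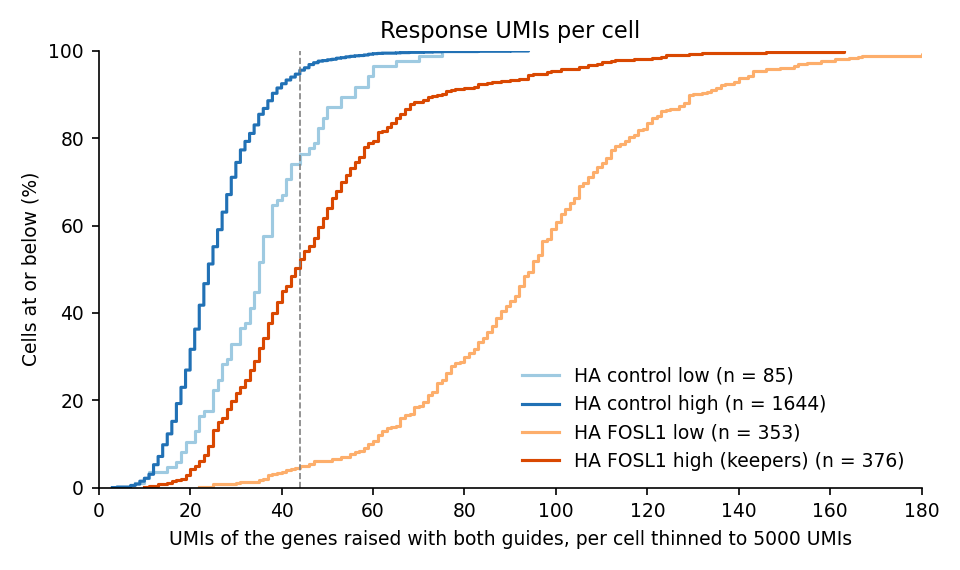
Share of cells (%) at or below a given number of UMIs of the 78 raised genes, each cell thinned to 5000 UMIs. The keepers' curve lies between those of S100A9-high HA control cells and low cells, and the dashed line at 44 UMIs has 47.6% of keepers above it.

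Keepers with a detected FOSL1 UMI held more of the response than those without. The 64 keepers with one had 93.6 CPM of OLFML3 and the 313 without had 8.52 CPM, against 2.06 CPM in S100A9-high HA control cells without one. KLK6 stood at 144, 51.6 and 16.5 CPM in the same order, and CAV1 at 866, 451 and 157 CPM. KRT14 stood at 159, 26.2 and 47.8 CPM, so that keepers without a FOSL1 UMI were below control for KRT14 only among these. In low cells the same split gave 231 and 159 CPM of OLFML3. Cells with a FOSL1 UMI were also deeper (medians 23841 and 18074 UMIs in keepers), and no UMI at this depth does not mean no FOSL1 RNA.

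The same gate was applied in the 4 samples the rule did not use, to see what S100A9-high cells share elsewhere. In edgeR's quasi-likelihood test with sample as block, 1155 of 12475 genes (9.26%) were higher and 1251 (10.0%) lower in S100A9-high cells at an adjusted p under 0.05. In the HA control alone 2.29% of genes at 20 CPM or more were at least 1.5-fold higher and 5.62% lower. S100A7 (log2 6.32, adjusted p 2.1e-23 in edgeR) and S100A8 (5.36, 1.8e-22) led, followed by SLPI, an antiprotease (1.45, 8.1e-16). ADAMTS1, an extracellular protease, was lowest by adjusted p (-2.44, 1.1e-15), followed by INHBA, the activin A subunit (-2.84, 2.8e-15), and CAV1 (-1.63, 1.3e-13). FOSL1 was lower too (-1.10, 6.2e-08), with log2 ratios of -2.23 (HA control), -1.56 (VPR control), -1.07 (gRNA2) and -0.89 (gRNA3). Of the 78 raised genes 67 were lower and 3 higher, and of the 45 lowered genes 39 were higher and 2 lower. These lists were drawn from some of the same samples, so the counts are not independent of the choice. Low cells were few in both controls, and without gRNA3 1471 genes were called in place of 2406.

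Whether the gate made a different difference in the HA FOSL1 sample was tested with edgeR as an interaction term over 10 sums, with 3 residual degrees of freedom. Of 12360 genes, 266 (2.15%) had a higher and 187 (1.51%) a lower ratio of S100A9-high to S100A9-low cells than in the other 4 samples. FOSL1 differed more across the gate in HA FOSL1 cells (difference of log2 ratios -1.81, SE 0.23, adjusted p 2.4e-05 in edgeR), as did OLFML3 (-2.36, 9.6e-10), KLK6 (-1.56, 7.7e-08) and KRT14 (-1.85, 9.4e-08). In the other samples the OLFML3 ratio lay between -0.84 in the HA control and -0.33 in the VPR control. The FOSL1 ratio was -2.82 in HA FOSL1 cells and -2.23 in the HA control. It was -1.56 in the VPR control, -1.07 under gRNA2 and -0.89 under gRNA3, so the HA control came nearest. With DESeq2 the FOSL1 difference was not called (adjusted p 0.77), while OLFML3, KLK6 and KRT14 were called in all 7 alternatives. S100A4, a calcium-binding protein of motile cells (-1.47, 1.5e-08), and ALCAM, an adhesion molecule (-1.88, 2.5e-08), were next on the lower side. For IL7R (-0.09, adjusted p 0.94) and CAV1 (-0.20, adjusted p 0.62) edgeR called no such difference, which does not show that the ratios were alike.

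On the other side of that test stood ICAM1, the leukocyte adhesion molecule (1.99, edgeR adjusted p 1.1e-09), TIMP3, an inhibitor of matrix proteases (2.05, 1.3e-08), and PI3 (1.73, 2.5e-08). ICAM1 stood at 130.5 CPM in keepers and 54.4 CPM in low cells. S100A9-high and S100A9-low cells held 41.2 and 80.5 CPM in the HA control, 39.2 and 72.2 CPM in the VPR control, 39.8 and 60.3 CPM under gRNA2, and 44.4 and 69.9 CPM under gRNA3. ICAM1 was thus higher on the S100A9-high side in HA FOSL1 cells and lower there in each of the other 4 samples. CRYAB (1.98, 3.9e-05) and IGFBP2 (2.51, 1.5e-07) also differed more in HA FOSL1 cells. Of the 78 raised genes 27 had a lower and 6 a higher ratio, and of the 45 lowered genes 25 a higher and none a lower one.

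Other groups of genes, from lists made with earlier results of these data known, were read in the same way. Of 14 genes of NF-kB and inflammation tested, 4 had a higher ratio in HA FOSL1 cells in edgeR and none a lower one, beside 2.15% of all genes higher and 1.51% lower: ICAM1, the chemokines CXCL8 and CXCL3, and TNFAIP2. CXCL8, which attracts neutrophils, stood at 99.4 CPM in keepers, 52.8 CPM in low cells and 20.3 CPM in S100A9-high HA control cells, and TNFAIP2 at 145, 95.03 and 66.0 CPM. The CXCL8 difference was not called with DESeq2 (adjusted p 1.0). In keepers against S100A9-high HA control cells 8 of 18 measured members of the list were at least 1.5-fold higher and 1 lower, median 0.56. At 20 CPM or more 5 of 8 were higher, beside 3.40% of all genes.

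Interferon-stimulated genes had 7 of 12 tested with a higher ratio and none with a lower one (2.15% and 1.51% of all genes), and 12 of 15 were at least 1.5-fold higher in keepers than in S100A9-high HA control cells (median 1.42). BST2 (tetherin) stood at 39.3 CPM in keepers, 13.7 CPM in low cells and 11.1 CPM in control, and the antiviral GTPase MX1 at 39.4, 17.9 and 17.9 CPM. Only 4 of the 15 reached 20 CPM, and 3 of those were higher, beside 3.40% of all genes. IFIT2 stood at 77.7 CPM in the 86 low cells of the HA control against 1.80 CPM in its high cells. Neither BST2 nor IFIT2 was called with DESeq2. BST2 was called in 3 of 7 alternatives, and MX1 and ISG15 in 4 of 7 each.

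Of the secreted defence proteins, 12 of 21 were at least 1.5-fold higher in keepers than in low cells and none lower, median 0.85. The 6 that reached 20 CPM were all among the 12, beside 3.84% of all genes higher, and 7 of the 21 were at 0 in each class, though not all the same 7. Against S100A9-high HA control cells 3 were higher and 1 lower, with a median of 0. At 20 CPM or more 2 of 9 were higher and 1 lower, beside 3.40% and 1.27% of all genes. SLPI stood at 525 CPM in keepers, 126 CPM in low cells and 774 CPM in S100A9-high HA control cells, and the acute-phase gene SAA2 at 95.9, 35.1 and 69.3 CPM. Of 9 laminin-332 and hemidesmosome genes, which anchor basal cells, 7 were at least 1.5-fold lower in keepers than in low cells, median -1.01. At 20 CPM or more 6 of 7 were lower, beside 6.58% of all genes. Of the 9, 4 were at least 1.5-fold higher in keepers than in S100A9-high HA control cells, median 0.53. None of the 5 that reached 20 CPM there was higher by as much, beside 3.40% of all genes. Of 15 G2/M genes 5 were at least 1.5-fold lower in keepers than in low cells and none higher, median -0.35, beside the same 6.58% of all genes lower. The ratio of no G2/M gene was called different from the other samples, where 13 of 15 were lower in S100A9-high cells. Of 15 S phase genes none was 1.5-fold apart.

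Markers of other cell types were looked at because S100A9 is also a myeloid gene. The 9 myeloid markers summed to 35.4 CPM in keepers, 12.997 CPM in low cells and 19.6 CPM in S100A9-high HA control cells, and 5 of 9 were at 0 in keepers, LYZ, TYROBP and AIF1 among them. CD14 gave 30.1 CPM of the sum in keepers. Over the other 4 samples CD14 was also higher in S100A9-high than in S100A9-low cells. Its log2 change there ran from 1.21 to 1.42 over the alternative fits. PTPRC, the pan-leukocyte marker, stood at 0.26 CPM in keepers. Fibroblast, endothelial and lymphoid markers summed to 2.62, 1.44 and 0.13 CPM. Of the line's own epithelial markers, EPCAM stood at 388 CPM in keepers and 390.4 CPM in low cells, and EGFR, which this line carries in many copies, at 1869 and 2738 CPM.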

How the data were processed

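Raw UMI counts per gene and barcode were deposited by the authors as 1 sparse matrix of 33538 genes and 5 hashtags. Per the file headers it came from Cell Ranger 4, and per the submitters' processing notes the build was hg38; other steps are not given in the sources used here. The authors' deposited hashtag table names each of 21228 called cells, with an assignment probability given as a fraction (at least 0.900241 for the 15371 assigned cells). Of the rest 5181 were multiplets, which were left out with 274 blanks and 402 unassigned cells. Doublets within 1 sample carry 1 hashtag and were not called.

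Cells had at least 1500 genes and at most 20% mitochondrial UMIs. Counts were summed per sample and S100A9 class, leaving out S100A9, and scaled to CPM (counts per 1000000 UMIs). Ratios are log2 of CPM + 1, which understates the change of low genes, with exact conditional binomial 95% intervals. Counts at 1.5-fold over all genes use those averaging 20 CPM or more in the classes compared. Thinned cells hold 5000 UMIs, and 44 shallower cells were left out of them. Free RNA was summed over 48909 barcodes with 10 to 100 UMIs. Genes raised or lowered with both guides were at least 1.5-fold from the VPR control on the same side with each, with intervals excluding 0 and 10 CPM or more on average in the VPR samples.

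Tests over samples used edgeR 4.0.16 (R 4.3.3; TMM, filterByExpr, quasi-likelihood F test, Benjamini-Hochberg adjusted p under 0.05), on 8 sums for the 4 other samples and on 10 sums for the interaction, where HA FOSL1 is 1 sample and the spread comes from the other 4. The samples come from 1 pool and nothing shows that they were separate experiments, so p-values measure only the spread between them. DESeq2 1.42.0 was an alternative, and the scripts were tested on simulated data. Both fits pair the S100A9-high and S100A9-low sums of a sample by a sample term; the labels give no replicate numbers that would pair samples across groups.

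The members and the 29 gene lists were chosen with earlier results of these data known. Genes named were FOSL1, S100A8, the 12 highest and 12 lowest ratios of keepers to low cells, the 3 at each end of both fits by adjusted p, and list members; which list members are shown as examples was decided with their values seen. Promoters come from RefSeq (GRCh38.p14).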

Additional observations from a re-analysis of the deposited data

Results flagged for a closer look

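For 18 of the genes named by size of the ratio between keepers and low cells, the difference between S100A9-high and S100A9-low cells was of another size in the HA FOSL1 sample than in the other 4 samples. Each value is the difference of log2 ratios from edgeR's interaction term, at an adjusted p under 0.05. As these genes were picked for a large ratio in HA FOSL1 itself, the direction of the difference is not independent of the choice.

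On the lower side, OLFML3 stood at -2.36, FST at -2.16, KRT14 at -1.85, FOSL1 at -1.81, C19orf33 at -1.59, SGK1 at -1.47, FRMD6 at -1.31 and PRSS23 at -0.93. On the higher side, IGFBP2 stood at 2.51, CRYAB at 1.98, PI3 at 1.73, SYT12 at 1.61, STEAP4 at 1.53, RARRES3 at 1.22, S100A8 at 1.21, CLU and SPDEF at 1.04 (CLU 1.045, SPDEF 1.038) and TNFSF10 at 1.02. The FOSL1 value was not called with DESeq2 (adjusted p 0.77), and that of S100A8 neither with DESeq2 (0.053), nor with thinned cells (0.52), nor without gRNA3 (0.099). FST, CLU and TNFSF10 were not called with thinned cells (adjusted p 0.071, 0.16 and 0.13), and SPDEF neither with DESeq2 (0.11) nor without gRNA3 (0.080).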

How the results depend on the processing

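None of 262 values of the 24 named genes under 11 settings changed sign, and 104 moved by more than their counting interval. Where a value below moved, the cause was not tested, except that a filter changes how many genes are counted. Keepers were 20.6% of HA FOSL1 cells, 9.26% with a limit of 20, 39.2% with limits of 5 and 2, 23.9% with the limits applied to thinned cells and 15.4% with at most 5% other hashtag UMIs (59 of 383 cells).

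Genes at least 1.5-fold apart numbered 595 for keepers against low cells, 265 for keepers against S100A9-high HA control cells, 802 for low cells against S100A9-low HA control cells and 460 within the HA control. With a minimum of 50 CPM these were 263, 122, 288 and 151, and with no filter 2474, 1366, 4705 and 3556. With at most 5% other hashtag UMIs the last 3 were 673, 2419 and 2370. Thinned cells gave 1331 and 815 for the last pair. Limits of 5 and 2 gave 340 for keepers against low cells and 167 within the HA control, where limits on thinned cells gave 219.

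The median log2 ratio of the raised genes in keepers against low cells (-1.15) was -0.85 with limits of 5 and 2, -0.84 with at most 5% other hashtag UMIs and -1.85 for guide genes at 2-fold. That of the lowered genes (2.05) was 1.57 with a pseudocount of 5 and 1.65 with limits of 5 and 2. Against control, the raised median in keepers (1.11) was 0.84 with the VPR control, 0.83 with all HA control cells and 1.63 for guide genes at 2-fold, and the lowered median (-0.52) was -0.33 with the VPR control. For guide genes chosen on S100A9-high VPR cells only, an alternative added after seeing the data, the lowered median was -0.74 in keepers and -2.74 in low cells. Against all HA control cells low cells had 1.97 for raised and -2.30 for lowered genes.

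In the 4 other samples edgeR called 2406 genes, DESeq2 1398 and edgeR on thinned cells 1046, and leaving out 1 sample gave 1471 to 2254 (1528 without gRNA2, 1471 without gRNA3). The interaction gave 453 genes, 163 with DESeq2, 171 with thinned cells and 239 (without gRNA3) to 520 without 1 sample. S100A9-low cells of the controls limit the depth most, with 1415813 and 803866 UMIs.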
